A study of Mus musculus with 24 samples.

Results

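The thick ascending limb is the stretch of the loop of Henle that reabsorbs salt without water, and its cells are recognised by a small set of transport, junction and signalling genes. A set of 7 such genes, taken by symbol, is described here: Slc12a1, Umod, Cldn10, Cldn16, Cldn19, Ptger3 and Ppp1r1a, 7 of the 54393 genes counted. They were measured by poly(A) RNA sequencing of whole mouse kidneys at embryonic day 18.5, in a study of intercalated cells, the acid-base cells of the collecting duct, and of their control by the transcription factors Dmrt2, Hmx2 and Hmx3. The 24 libraries fall into 6 groups from 3 lines: 3 Dmrt2 KO and 3 Dmrt2 control kidneys, 6 Hmx3; Hmx2 KO and 6 Hmx3; Hmx2 control kidneys, and 3 kidneys labelled Dmrt2; Hmx3; Hmx2 KO (triple knockout) with 3 controls. All controls are littermates of the knockouts of their line. The labels give no allele for any line, name no treatment, and do not say whether each library came from its own embryo, so the spread behind the p-values is that of these libraries and may be technical in part. The Hmx3; Hmx2 libraries come in 2 tables, replicates 1 to 3 and replicates 4 to 6, and controls 1 to 3 carry the mark WT in their labels.

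As background, the sodium-potassium-chloride cotransporter encoded by Slc12a1 drives salt uptake across the apical membrane of these cells, and potassium that leaks back gives the lumen a positive voltage. That voltage pushes cations between the cells through junction pores built from claudins, with Cldn10 forming a sodium pore and Cldn16 with Cldn19 a pore for calcium and magnesium. Umod encodes uromodulin, the main protein of normal urine. Prostaglandin E2 restrains salt uptake through receptors such as the one encoded by Ptger3, and Ppp1r1a encodes inhibitor 1, which blocks protein phosphatase 1 once it has been phosphorylated by protein kinase A.

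On the build mm39 of the deposited tables, Slc12a1 lies on chromosome 2 (124994425 to 125071922, plus strand) and Umod on chromosome 7 (119061934 to 119078505, minus strand). Cldn10 lies on chromosome 14 (119025320 to 119112901), Cldn16 on chromosome 16 (26281885 to 26301515) and Cldn19 on chromosome 4 (119112611 to 119119635), all on the plus strand. Ptger3 lies on chromosome 3 (157272529 to 157351525, plus strand) and Ppp1r1a on chromosome 15 (103438706 to 103446430, minus strand). Counts were summed over all exons of a gene, so transcripts from different starts were not separated. This bears on Cldn10, whose transcripts begin at separate promoters and are known as 1 isoform of the thick ascending limb and another of the proximal tubule, which the counts add together.

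Promoter windows were read from RefSeq on GRCm38.p6, another build, for 6 of the 7 genes, and Ppp1r1a is named only. The 250 bases before the start of Slc12a1, which gave the most reads per length, of Umod, of both Cldn10 starts, and of Ptger3, which gave the fewest, are shown because the knockouts removed transcription factors and because some of these genes varied together across libraries. Capitals mark matches on either strand to GTTAAT (an HNF1 motif), CAAGTG (an HMX core) or GGGCGG (a GC box). The DMRT core motif, spelled ACATTGT, had no match in the 8 windows of these genes. Neither did the motif spelled TATAAA, known as the core promoter box of that name.
Slc12a1, chr2:125152350-125152599, plus strand: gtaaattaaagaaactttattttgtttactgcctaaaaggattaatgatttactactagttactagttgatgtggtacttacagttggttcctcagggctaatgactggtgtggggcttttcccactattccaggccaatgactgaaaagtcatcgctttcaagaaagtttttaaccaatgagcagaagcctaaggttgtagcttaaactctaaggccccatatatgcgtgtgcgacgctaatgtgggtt
Umod, chr7:119479263-119479512, minus strand: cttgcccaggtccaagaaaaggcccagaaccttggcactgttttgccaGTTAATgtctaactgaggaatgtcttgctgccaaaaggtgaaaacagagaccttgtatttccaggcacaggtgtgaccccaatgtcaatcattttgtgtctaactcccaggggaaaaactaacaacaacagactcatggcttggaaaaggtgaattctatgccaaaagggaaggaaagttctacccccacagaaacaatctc
Cldn10 upstream start, chr14:118787621-118787870, plus strand: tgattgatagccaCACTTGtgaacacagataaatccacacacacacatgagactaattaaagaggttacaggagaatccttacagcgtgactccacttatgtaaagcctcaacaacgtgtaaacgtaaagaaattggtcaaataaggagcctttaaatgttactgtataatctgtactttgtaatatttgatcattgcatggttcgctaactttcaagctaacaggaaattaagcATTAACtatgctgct
Cldn10 downstream start, chr14:118854700-118854949, plus strand: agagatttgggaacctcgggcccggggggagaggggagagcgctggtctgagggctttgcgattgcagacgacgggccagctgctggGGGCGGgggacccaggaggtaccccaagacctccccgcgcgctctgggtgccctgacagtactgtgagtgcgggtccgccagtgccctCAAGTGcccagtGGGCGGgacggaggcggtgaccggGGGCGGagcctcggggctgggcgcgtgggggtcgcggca
Ptger3, chr3:157566626-157566875, plus strand: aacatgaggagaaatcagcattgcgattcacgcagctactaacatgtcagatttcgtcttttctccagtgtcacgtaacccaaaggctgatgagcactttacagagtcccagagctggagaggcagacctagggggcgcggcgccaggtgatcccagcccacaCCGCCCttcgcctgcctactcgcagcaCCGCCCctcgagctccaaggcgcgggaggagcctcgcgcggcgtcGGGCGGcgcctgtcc
No 2 of the marked matches overlap.

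The windows differed in composition and in the motifs they held. GC content was 39.6% for Slc12a1, 45.2% for Umod, 36.0% for the upstream and 72.4% for the downstream start of Cldn10, and 62.0% for Ptger3, against a median of 52.4% over 32851 RefSeq windows. The HNF1 motif occurred in 2 of the 8 windows, those of Umod (202 bases before the start) and the upstream Cldn10 start (15 bases), and in 6.43% of all windows. The HMX core occurred in both Cldn10 windows (237 and 75 bases before the start) and in 11.6% of all windows. GC boxes occurred in 4 windows, those of Ptger3, the downstream Cldn10 start and both Cldn19 starts, and in 32.7% of all. The 2 Cldn19 windows overlap and share the same GC boxes, so they are not separate cases. The DMRT core and the TATA box were in 2.56% and 12.4% of all windows. These are matches of letters in a window and were not tested for binding.

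Libraries held 52286824 to 127339273 counted reads, and mitochondrial genes took 0.979% to 2.536% of them. The targeted genes were examined before any comparison. Dmrt2 stood at 1.99 ± 0.371 CPM (reads of the gene scaled to a common library total with TMM factors; SD, n = 3) in Dmrt2 knockouts and 13.7 ± 1.39 in their controls, and Hmx2 at 0.0224 ± 0.026 CPM against 1.93 ± 0.296 in the Hmx3; Hmx2 groups (n = 6 each). In the libraries labelled triple knockout Hmx2 was at 0.00703 ± 0.0122 CPM against 2.69 ± 0.541, but Dmrt2 was at 18.4 ± 0.745 against 11.4 ± 0.727 CPM (n = 3 each; log2 fold change 0.69, edgeR adjusted p = 0.0042), so these counts go against the Dmrt2 part of that label as a loss of transcript. Directions given for the triple libraries rest on their label. Hmx3 was low even in controls, at 0.0873 ± 0.0433 CPM against 0.0173 ± 0.0253 in Hmx3; Hmx2 knockouts (n = 6 each). In the triple groups it was at 0.0924 ± 0.0641 CPM in controls and 0 in knockouts (n = 3 each). It did not pass the filter for testing in either line, so its loss was not tested. Expression of Y-linked genes was seen in 1 of 3 Dmrt2 knockouts and 3 of 3 controls, in 2 of 6 and 4 of 6 of the Hmx3; Hmx2 groups, and in 2 of 3 and 2 of 3 of the triple groups.

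All 7 genes were measured in every library. The fewest reads in any library were 24312 for Slc12a1, 4384 for Cldn19, 3374 for Umod, 2956 for Cldn10, 1352 for Ppp1r1a, 675 for Ptger3 and 525 for Cldn16, far above the 3 reads taken as the floor. Per kilobase of exon, Slc12a1 was the highest of the 7 in each of the 4 sets of controls, at 81.3 to 98.1 CPM per kb, and its libraries did not overlap those of the next gene. Umod followed in 3 of the sets (29.0 to 31.9 CPM per kb). In the Dmrt2 controls Ppp1r1a came next at 39.1, and its libraries overlapped those of Umod at 33.4. Ppp1r1a, Cldn10 and Cldn19 lay below, and neighbours overlapped in part: Umod with Ppp1r1a in the triple controls and with Cldn10 in the Dmrt2 controls, Cldn10 with Ppp1r1a in 3 sets and with Cldn19 only in Hmx3; Hmx2 controls 1 to 3. Cldn16 (7.48 to 9.65 CPM per kb) and then Ptger3 (2.69 to 4.08) were the lowest in every set without overlap. Ppp1r1a differed most between sets, with 39.1 CPM per kb in Dmrt2 controls, 30.1 in triple controls and 24.5 and 22.0 in the 2 sets of Hmx3; Hmx2 controls. These sets differ in line, table, library depth and presence of Y-linked genes, which cannot be told apart here.

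**Figure D1:**
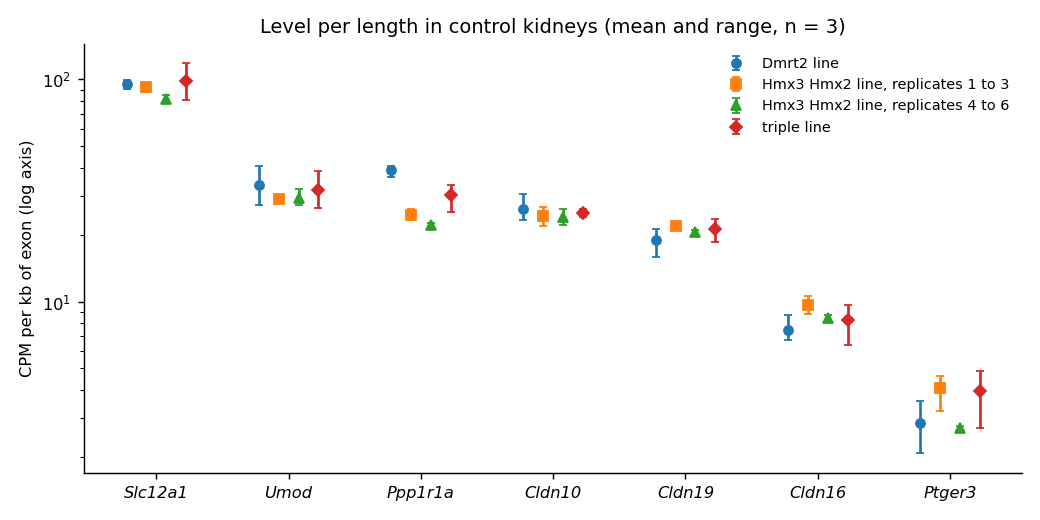
Level of each gene in control kidneys in CPM per kilobase of exon (log axis). Points are means and bars the lowest and highest of 3 libraries, in 4 sets of controls. Slc12a1 lies at 81.3 to 98.1 and Ptger3 at 2.69 to 4.08 CPM per kb.

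The 3 comparisons of knockout with control gave no call for any of the 7 genes. A gene is said to be called when its Benjamini-Hochberg adjusted p in edgeR's quasi-likelihood test over all genes is under 0.05. In the Dmrt2 comparison 0 of 7 were called, beside 0.444% of the 19807 genes tested, and the lowest adjusted p was 0.19. At an unadjusted p under 0.05 there were 2 of the 7 (Cldn10 and Ppp1r1a), beside 12.3% of all genes, and DESeq2 called 0. In the Hmx3; Hmx2 comparison 0 of 7 were called, beside 0.021% of 19050 genes, with a lowest adjusted p of 0.95. None of the 7 had an unadjusted p under 0.05, beside 4.93% of all, and DESeq2 called 0. In the triple comparison 0 of 7 were called, beside 1.03% of 21537 genes, with a lowest adjusted p of 0.088. At an unadjusted p under 0.05 there were 4 (Cldn10, Cldn19, Ptger3 and Ppp1r1a), beside 17.9% of all genes, and DESeq2 called 1, Ppp1r1a. The median log2 fold change of the 7 was −0.02, −0.02 and 0.04 in the Dmrt2, Hmx3; Hmx2 and triple comparisons, beside 0, −0.01 and 0 over all genes tested. In whole kidneys, fewer cells of a type and less RNA per cell cannot be told apart.

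**Figure D2:**
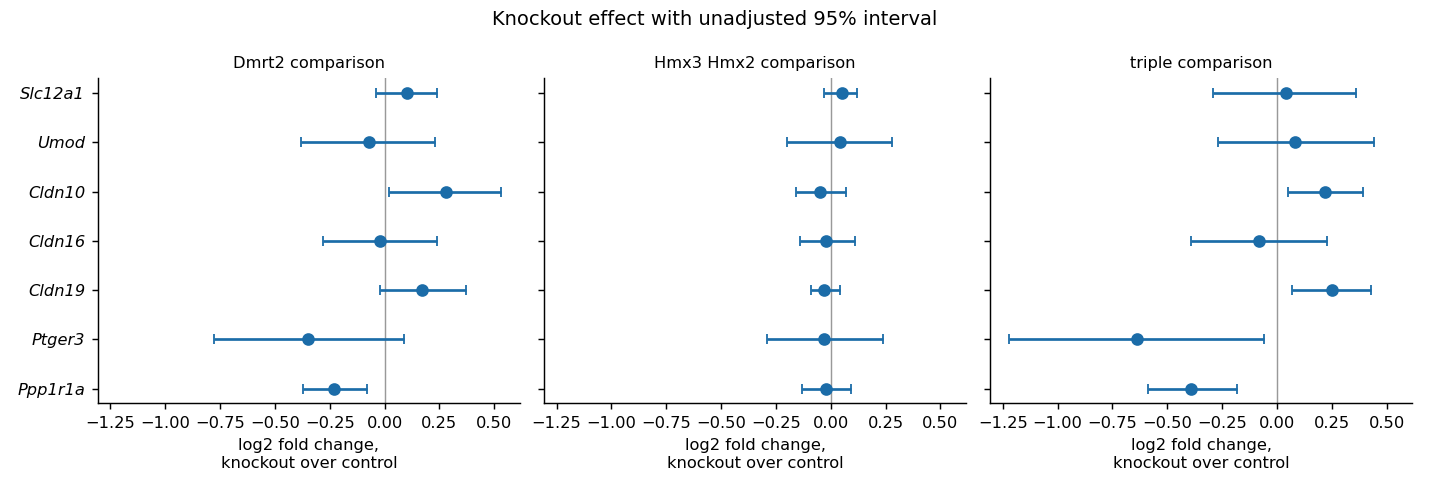
Log2 fold change of knockout over control for each gene in the 3 comparisons. Points are edgeR estimates and bars unadjusted 95% intervals. In the Hmx3; Hmx2 comparison all 7 estimates lie between −0.05 and 0.05, and in the triple comparison they run from −0.64 (Ptger3) to 0.25 (Cldn19).

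Slc12a1, which encodes the cotransporter blocked by loop diuretics, ranged from 453 to 679 CPM over the 24 libraries. Dmrt2 knockouts held 606, 620 and 552 CPM and their controls 560, 520 and 575. The groups overlapped, with 2 of 3 knockouts above all controls (log2 fold change 0.10 ± 0.06 SE, 95% interval −0.04 to 0.24, edgeR adjusted p = 0.57). In the Hmx3; Hmx2 line the lowest, median and highest of 6 knockouts were 474, 518 and 546 CPM, against 453, 500 and 545 in controls. This comparison was the most precise for the gene, at 0.05 ± 0.04 SE with an interval of −0.03 to 0.12. The triple libraries held 556, 559 and 619 CPM, and their controls 679, 553 and 465, so the knockouts lay inside the range of the controls (0.04 ± 0.13 SE, interval −0.29 to 0.36, adjusted p = 0.92).

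Umod, whose protein product is released into the lumen after cleavage by hepsin, ranged from 65.7 to 112 CPM. Dmrt2 knockouts lay close together at 87.4, 86.7 and 88.8 CPM, inside the wider range of their controls at 75.5, 89.1 and 112. The log2 fold change was −0.07 ± 0.13 SE (interval −0.38 to 0.23). In the Hmx3; Hmx2 line it was the knockouts that spread widely, from 65.7 through a median of 84.9 to 99.1 CPM, against 74.8, 79.7 and 88.8 in controls. Of the 6 knockouts 3 lay above all controls and 2 below all, and the mean difference was 0.04 ± 0.11 (interval −0.20 to 0.28). Triple libraries held 92.0, 86.2 and 101 CPM and controls 107, 84.2 and 73.3 (0.08 ± 0.14, interval −0.27 to 0.44). The adjusted p-values of the 3 edgeR tests were 0.87, 0.98 and 0.81.

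**Figure D3:**
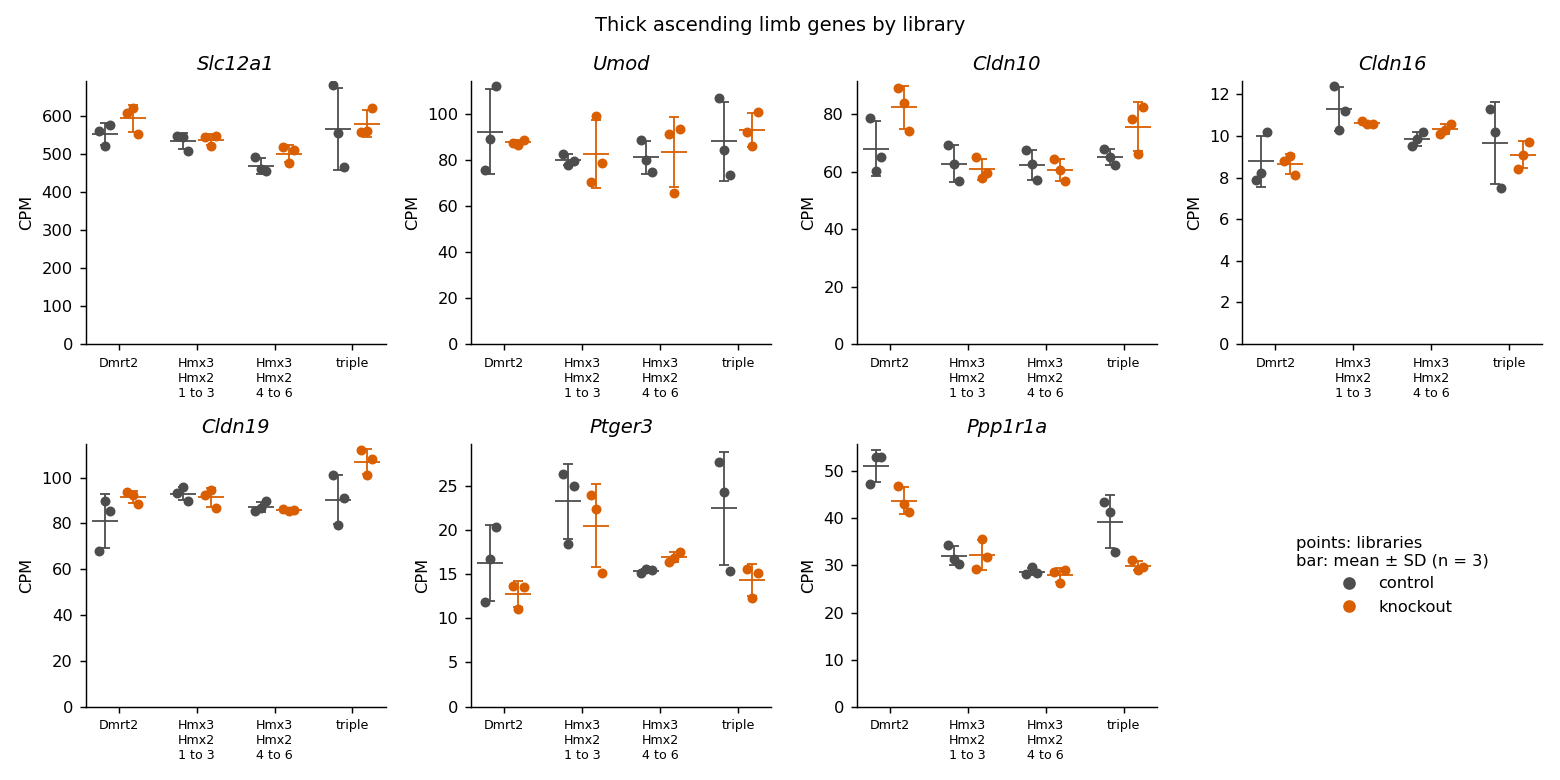
CPM of each gene in every library, by table, from 0. Points are libraries and bars the mean with SD (n = 3). Ppp1r1a in knockouts lies below all controls in the Dmrt2 and triple panels, and Cldn19 lies above all controls in the triple panel.

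Among the claudins, Cldn10 and Cldn19 had positive estimates in the Dmrt2 and triple comparisons and Cldn16 did not. Cldn10, counted over its isoforms together, stood at 89.0, 84.0 and 74.3 CPM in Dmrt2 knockouts and at 78.7, 60.2 and 65.0 in controls. Of the 3 knockouts 2 lay above all controls, the mean was 1.21 times that of controls, and the gene was not called (0.28 ± 0.11 SE, interval 0.02 to 0.53, edgeR adjusted p = 0.37). In the triple libraries it stood at 78.2, 66.1 and 82.5 CPM, against 67.9, 65.1 and 62.3 in controls. Here too 2 of 3 knockouts lay above all controls and the gene was not called (0.22 ± 0.08, interval 0.05 to 0.39, adjusted p = 0.19), with 0.14 left without knockout replicate 3. Leaving out each library in turn gave values from 0.14 to 0.31. Without Dmrt2 control replicate 1, the highest of its group, Cldn10 was called in the Dmrt2 comparison (0.40, adjusted p = 0.04). The Hmx3; Hmx2 groups lay at 56.9, 60.2 and 65.0 CPM (lowest, median, highest of 6 knockouts) and at 56.6, 62.6 and 69.2 in controls. All knockouts were inside the range of the controls (−0.05 ± 0.05, interval −0.16 to 0.07).

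Cldn19, a partner of Cldn16 in the divalent cation pore, stood at 112, 101 and 108 CPM in the triple libraries and at 101, 79.3 and 91.0 in their controls. All 3 knockouts lay above all controls, the closest 2 libraries both rounding to 101, and the mean was 1.18 times that of controls (0.25 ± 0.08 SE, interval 0.07 to 0.43, edgeR adjusted p = 0.17). Of all genes tested 11.6% had knockouts above all controls in this table. Dmrt2 knockouts held 93.6, 92.6 and 88.6 CPM and controls 67.9, 90.0 and 85.6, with 2 knockouts above all controls (0.17 ± 0.09, interval −0.02 to 0.37, adjusted p = 0.47). Without control replicate 1, the lowest, this value was 0.06, and the triple value was 0.16 without triple control replicate 2. Leaving out each library in turn gave triple values from 0.16 to 0.33. The Hmx3; Hmx2 groups lay within a few CPM of each other, at 85.4, 86.5 and 94.8 in knockouts and 85.4, 89.7 and 95.7 in controls (−0.03 ± 0.03, interval −0.09 to 0.04).

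Cldn16 was the least abundant claudin, at 7.48 to 12.4 CPM. Dmrt2 knockouts held 8.81, 9.02 and 8.11 CPM and controls 7.89, 8.24 and 10.2 (log2 fold change −0.02 ± 0.12 SE, interval −0.28 to 0.24). Triple libraries held 8.43, 9.11 and 9.73 CPM and controls 11.3, 10.2 and 7.48 (−0.08 ± 0.14, interval −0.39 to 0.23). The knockouts lay inside the range of the controls in both tables. The 6 Hmx3; Hmx2 knockouts were close together at 10.1, 10.6 and 10.7 CPM, against 9.51, 10.3 and 12.4 in controls (−0.02 ± 0.06, interval −0.14 to 0.11).

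Ptger3, which encodes the prostaglandin receptor EP3 and is also known from collecting duct, varied most of the 7, with 11 to 27.7 CPM over all libraries. Triple libraries held 15.6, 12.3 and 15.1 CPM and their controls 27.7, 24.3 and 15.3. Of the 3 knockouts 2 lay below all controls, replicate 1 lay just above control replicate 3, and the mean was 0.639 of that of controls. The log2 fold change was −0.64 ± 0.23 SE (interval −1.22 to −0.06) with an edgeR adjusted p of 0.25. Without control replicate 3 the gene was called (−0.86, adjusted p = 0.0026). Leaving out each library in turn gave values from −0.86 to −0.47. Dmrt2 knockouts held 13.7, 11 and 13.5 CPM and controls 11.8, 16.7 and 20.3, so the groups overlapped (−0.35 ± 0.19, interval −0.78 to 0.09, adjusted p = 0.51). The value was −0.16 without Dmrt2 control replicate 3, the highest control, and −0.53 without control replicate 1, the lowest (adjusted p = 0.75 and 0.066).

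In the Hmx3; Hmx2 line Ptger3 averaged 20.5 CPM in knockouts and 23.2 in controls of replicates 1 to 3, and 16.9 and 15.3 in replicates 4 to 6. Replicates 1 to 3 held 23.9, 22.4 and 15.1 CPM in knockouts and 26.3, 18.4 and 25.0 in controls. Replicates 4 to 6 held 16.4, 16.8 and 17.5 CPM in knockouts and 15.1, 15.6 and 15.4 in controls, all 3 knockouts above all controls, as for 4.8% of the genes tested in this table. Over both tables the log2 fold change was −0.03 ± 0.12 (interval −0.29 to 0.24, edgeR adjusted p = 0.99). It was 0.13 in the table of replicates 4 to 6 alone, and the effects of the 2 tables differed by 0.32 ± 0.23 (adjusted p = 1), or by 0.14 without knockout replicate 3. That test called 0 of 19050 genes, with 2.12% at an unadjusted p under 0.05 and 1 gene called by DESeq2.

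Ppp1r1a, the phosphatase inhibitor, was the one gene of the 7 whose groups did not overlap in both the Dmrt2 and the triple table. Dmrt2 knockouts held 46.9, 43.1 and 41.3 CPM and controls 47.3, 53.1 and 53.0, with a mean of 0.856 of controls. The lowest control exceeded the highest knockout by a narrow margin. The log2 fold change was −0.23 ± 0.07 SE (interval −0.37 to −0.08, edgeR adjusted p = 0.19), and 7.71% of genes tested had knockouts below all controls in this table. With presence of Y-linked genes as a covariate the value was −0.12 (adjusted p = 0.84).

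In the triple libraries Ppp1r1a stood at 31.1, 29.1 and 29.7 CPM and in their controls at 43.5, 41.4 and 32.9. All knockouts lay below all controls, as for 12.9% of genes tested, and the mean was 0.763 of that of controls. The log2 fold change was −0.39 ± 0.09 SE (interval −0.59 to −0.18), with an edgeR adjusted p of 0.088. It was called by DESeq2 (adjusted p = 0.0037), in the edgeR fit of all 24 libraries (adjusted p = 0.0099) and without control replicate 3, the lowest control (−0.50, edgeR adjusted p = 0.002). Leaving out each library in turn gave values from −0.50 to −0.31. The 6 Hmx3; Hmx2 knockouts lay at 26.3, 29.2 and 35.6 CPM (lowest, median, highest) and their controls at 28.2, 30.0 and 34.3. These groups overlapped throughout (−0.02 ± 0.05, interval −0.13 to 0.09).

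Counting genes whose groups did not overlap gave 1 of 7 in the Dmrt2 table (17.4% of all genes tested), 2 of 7 in the triple table (24.5%), 0 of 7 in the table of Hmx3; Hmx2 replicates 1 to 3 (7.52%) and 1 of 7 in that of replicates 4 to 6 (9.19%). Over 6 against 6 libraries of that line it was 0 of 7 (0.0787%).

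Reads of the other 6 genes were also taken as a percentage of Slc12a1 reads in the same library, a quantity free of library scaling. Ptger3 and Cldn10 are also known from other cells of the kidney, so these ratios need not describe thick ascending limb cells alone. Umod reads were 16.1% ± 0.589 of Slc12a1 reads (SD, n = 3) in triple libraries and 15.6% ± 0.29 in controls. Across all 3 lines the group means for Umod lay between 14.8% and 16.7%. Ptger3 reads were 2.48% ± 0.305 in triple libraries and 3.92% ± 0.565 in controls, without overlap, although CPM of the gene did overlap. Ppp1r1a reads were 5.2% ± 0.4 against 6.99% ± 0.553 in the triple table and 7.39% ± 0.398 against 9.29% ± 0.886 in the Dmrt2 table, both without overlap. These 3 contrasts had the smallest two-sided exact permutation p that 3 against 3 libraries allow, 0.1, and an adjusted p of 0.36 over the 18 ratios tested. The share of all genes without overlap in this ratio was not computed. By CPM that share was 24.5% in the triple and 17.4% in the Dmrt2 table. Ptger3 in the Dmrt2 table, at 2.16% ± 0.354 against 2.94% ± 0.747, overlapped (exact permutation p = 0.3). In the Hmx3; Hmx2 line, where 6 against 6 libraries permuted within tables could reach 0.005, the lowest exact permutation p was 0.09, for Cldn10 at 11.7% ± 0.791 against 12.6% ± 1.06.

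**Figure D4:**
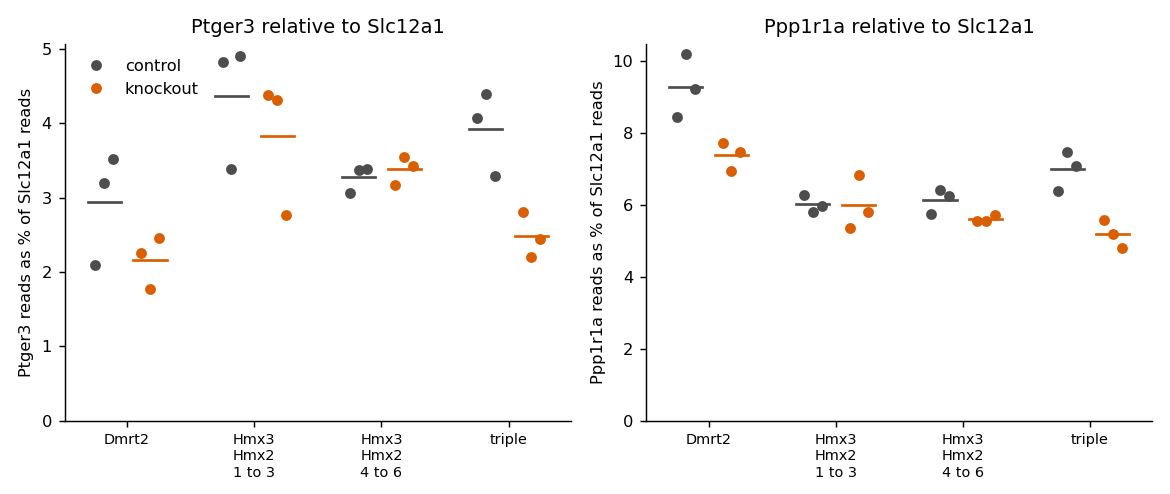
Reads of Ptger3 (left) and Ppp1r1a (right) as a percentage of Slc12a1 reads in each library, by table. Points are libraries and lines group means. In the triple table the knockouts lie at 2.2% to 2.8% for Ptger3, below the controls at 3.29% to 4.39%, and at 4.79% to 5.59% for Ppp1r1a, below 6.4% to 7.49%.

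Whether knockout effects differ between lines was tested in 1 fit of all libraries, each effect taken against the controls of its own table. None of the 7 genes was called in any of the 3 differences, beside 0.394% of 22101 genes for triple minus Dmrt2, 0.968% for triple minus Hmx3; Hmx2 and 0.154% for Dmrt2 minus Hmx3; Hmx2. At an unadjusted p under 0.05 there were 0, 4 (Cldn10, Cldn19, Ptger3 and Ppp1r1a) and 3 (Cldn10, Cldn19 and Ppp1r1a) of the 7, beside 11.4%, 13.3% and 7.67% of all genes, and DESeq2 called 0, 1 and 0. The lowest adjusted p was for Ppp1r1a, whose effect in the triple libraries was below that in Hmx3; Hmx2 knockouts by a log2 difference of −0.38 ± 0.10 SE (interval −0.58 to −0.17, edgeR adjusted p = 0.063). For that difference the gene was called without Hmx3; Hmx2 knockout replicate 1 (−0.40, adjusted p = 0.041), without triple control replicate 3 (−0.48, adjusted p = 0.0071) and by DESeq2 (adjusted p = 0.024). In the same contrast Cldn19 differed by 0.27 ± 0.09 (interval 0.08 to 0.46, adjusted p = 0.19), Ptger3 by −0.62 ± 0.27 (0.32) and Cldn10 by 0.26 ± 0.12 (0.35). Between the triple and Dmrt2 effects the differences were −0.16 ± 0.12 for Ppp1r1a, −0.30 ± 0.31 for Ptger3 and −0.06 ± 0.14 for Cldn10, with intervals of −0.40 to 0.07, −0.95 to 0.36 and −0.35 to 0.23. Leaving out each library moved these from −0.27 to −0.08 for Ppp1r1a, from −0.50 to −0.11 for Ptger3 and from −0.18 to 0.04 for Cldn10. The lowest and highest came on leaving out triple control replicates 3 and 1 for Ppp1r1a and Ptger3, and Dmrt2 control replicate 1 gave the same highest value for Ptger3. Dmrt2 minus Hmx3; Hmx2 was −0.21 ± 0.10 for Ppp1r1a (adjusted p = 0.65), −0.33 ± 0.27 for Ptger3 (0.85) and 0.32 ± 0.12 for Cldn10 (0.51). For Ptger3 this was −0.51 without Dmrt2 control replicate 1 and −0.14 without Dmrt2 control replicate 3.

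The 7 genes differed in how much they varied between libraries of the same group and table. The SD of log2 CPM within groups was 0.27 for Ptger3, 0.20 for Umod, 0.14 for Cldn16, 0.13 for Cldn10, 0.12 for Slc12a1, and 0.11 for both Ppp1r1a and Cldn19, where the median of 14586 genes was 0.09. The percentile among these genes was 96.4 for Ptger3 and 89.2 for Umod.

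The 21 pairs of the 7 genes were then compared across the 24 libraries after the mean of each group and table had been taken from log2 CPM. Pearson's r was positive for 18 pairs and negative for 2, with a median of 0.45. The p-values come from 100000 permutations of libraries within group and table. After adjustment over the 21 pairs 2 passed by Pearson's r: Slc12a1 with Cldn10 (r = 0.50, permutation p = 0.0033, adjusted p = 0.034; Spearman's rho 0.65, p = 0.005, adjusted p = 0.085) and Umod with Ppp1r1a (r = 0.73, p = 0.0026, adjusted p = 0.034; rho 0.65, p = 0.0081, adjusted p = 0.085). By Spearman's rho 0 of 21 passed. The same counts were not taken for pairs of other genes, so whether these pairs exceed others was not tested. Without the 2 libraries farthest from the median of the first gene, r was 0.66 and 0.74 for these pairs. Other pairs rested on such libraries: for Slc12a1 with Cldn16 r went from 0.73 (permutation p = 0.031, adjusted p = 0.124; rho 0.55) to 0.38, and for Slc12a1 with Ptger3 from 0.39 (p = 0.36) to −0.12. Cldn16 with Ptger3 had r = 0.70 (permutation p = 0.018, adjusted p = 0.124; rho 0.54), and 0.53 without its 2 farthest libraries. Cldn10 stood apart from the other genes except Slc12a1, with r between −0.19 (Cldn19) and 0.11 (Cldn16).

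**Figure D5:**
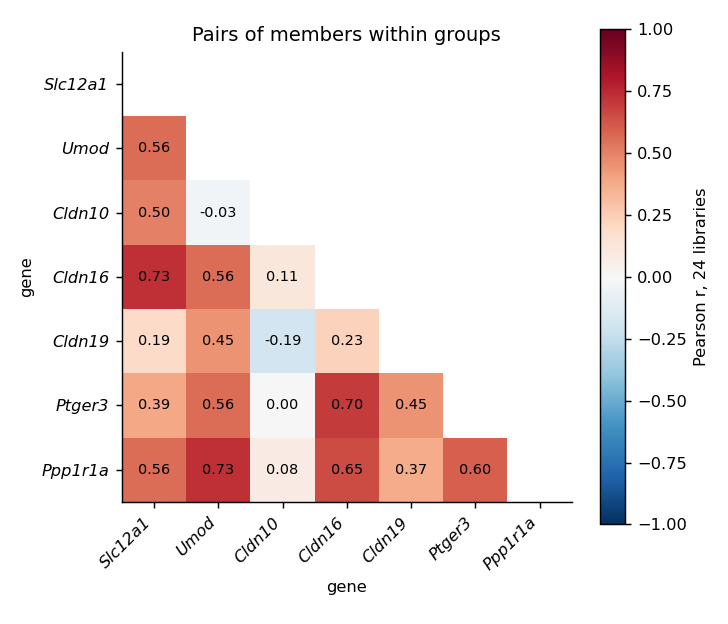
Pearson's r for the 21 pairs of the 7 genes over 24 libraries, on log2 CPM centred within group and table. Colour and printed value give r. The highest values are 0.73 (Slc12a1 with Cldn16, Umod with Ppp1r1a) and the lowest −0.19 (Cldn10 with Cldn19).

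By the same measure the genes most like the mean of the 7, among 14579 genes compared over 24 libraries, were Ptges, which encodes a prostaglandin E2 synthase (r = 0.89), Cox4i2, a subunit of cytochrome c oxidase (0.88), Slc4a11, a membrane transporter of the bicarbonate transporter family (0.86), Ndrg2 (0.85) and Cystm1 (0.84). The most similar gene to each was P2ry14 for Slc12a1 (0.87), Tmem213 for Umod (0.81), Il13ra1 for Cldn10 (0.83), Fbln1 for Cldn16 (0.86), Rap1gap for Cldn19 (0.85), Lrp10 for Ptger3 (0.90) and Acvrl1 for Ppp1r1a (0.85). These values are a description, the highest of many, over libraries that share depth and tissue composition.

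Other genes of the pathway were read from lists set by function. Of 9 transport partners, such as the potassium channel gene Kcnj1, 0 were called in any of the 3 comparisons. Their median log2 fold changes were −0.04, 0.05 and −0.15 in the Dmrt2, Hmx3; Hmx2 and triple comparisons, and 7 of 9 were below 0 in the last, with Kcnj1 at −0.19 (edgeR adjusted p = 0.28). Of 9 regulators of the cotransporter 0 were called in any comparison (8 were tested in the Hmx3; Hmx2 line). The calcium-sensing receptor gene Casr had 0.53 in the Dmrt2 and 0.25 in the triple comparison (adjusted p = 0.25 and 0.22). Of 8 other junction genes 0 were called, with Cldn14, an inhibitor of the divalent cation pore, at 1.03 in the triple comparison (adjusted p = 0.21). None of 8 factors of loop development, 3 macula densa genes, 5 tested genes of protein phosphatase 1 and its inhibitors, nor Hpn, the gene of hepsin, was called. Hpn had −0.01, −0.01 and −0.05.

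Of 8 other genes of prostaglandin E2 signalling 1 was called, Ptges, in the triple comparison. Triple libraries held 37.5, 33.7 and 37.9 CPM of Ptges and controls 58.0, 51.6 and 44.3, so that it fell by 0.49 on the log2 scale (SE 0.09, edgeR adjusted p = 0.045; 0.446% of genes tested were called lower). The call ended under 9 of 13 alternatives, all with a log2 value between −0.40 and −0.53: on leaving out any 1 of the 6 libraries other than control replicate 3 (adjusted p = 0.06 to 0.15), and under other size factors, a minimum mean of 1 CPM, a replicate block and a Y-linked covariate (0.051 to 0.093). It lay at −0.18 in the Dmrt2 comparison (adjusted p = 0.42) and 0.02 in the Hmx3; Hmx2 comparison (0.97). The triple effect was lower than that in Hmx3; Hmx2 knockouts by a log2 difference of −0.52 ± 0.10 (adjusted p = 0.0072), while its difference from the Dmrt2 effect was −0.32 ± 0.11 (adjusted p = 0.26).

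Marker lists of thick ascending limb and neighbouring cells were read beside these values. Of 7 thick ascending limb markers, 5 of which are among the genes described, 0 were called, and their summed level was 905 to 1020 CPM in triple libraries and 788 to 1080 in controls, and 897 to 980 against 850 to 942 CPM in the Dmrt2 line. None of these markers was at 0 in any group, so the genes that define the cell type were present in the labelled tissue. In the triple table the 3 macrophage markers summed to 57.3 to 64.5 CPM against 67.3 to 92.1, the 4 markers of the distal convoluted tubule to 271 to 297 against 299 to 414, and the 3 podocyte markers to 898 to 911 against 990 to 1060. The distal convoluted tubule list was split, with 2 of its 4 log2 fold changes below 0, Calb1 at −1.14 and Pvalb at 1.53. The sum of the 3 stroma markers was higher in triple libraries, at 2250 to 2560 CPM against 1960 to 2120. Within that list Col1a1 had a log2 fold change of 0.27 and Foxd1 −0.06, with a median of 0.01. The sums of these 4 lists did not overlap between groups, and 0 of their genes were called in the triple comparison. Of single genes tested 24.5% did not overlap in this table, and no such share was computed for sums of lists. Calb1 was called in the difference triple minus Hmx3; Hmx2 (−1.34, edgeR adjusted p = 0.0072), beside 0.968% of all genes. It was not called in triple minus Dmrt2 (−0.76, adjusted p = 0.25). The sums of the 3 thin limb markers overlapped between groups, at 217 to 238 against 212 to 264 CPM in the triple table. In the Dmrt2 table these sums were 198 to 217 against 213 to 257 CPM and overlapped too. Aqp1 and Sptssb of this list were called in neither table. All 3 of its markers were below 0 in the triple (log2 −0.94 to −0.06) and in the Dmrt2 comparison (−0.69 to −0.15). Among them Slc14a2, a urea transporter gene, fell by 0.69 on the log2 scale in the Dmrt2 comparison (SE 0.12, edgeR adjusted p = 0.033; 10.7, 8.65 and 11.2 against 14.3, 16.6 and 18.5 CPM; 0.257% of genes tested were called lower). This call ended under 6 of 14 alternatives: without knockout replicate 1 or 2 or control replicate 2 or 3 (adjusted p = 0.066 to 0.17), in the joint fit (0.31) and with the Y-linked covariate (0.72). It stood at −0.94 in the triple comparison (adjusted p = 0.063). In the Dmrt2 table the 4 principal cell markers summed to 427 to 461 CPM against 485 to 749, and the 4 intercalated cell markers to 136 to 143 against 150 to 165. The 3 endothelium markers were higher there, at 630 to 638 CPM against 582 to 620. Of single genes tested 17.4% did not overlap in the Dmrt2 table, and no such share was computed for sums of lists. None of the principal cell or endothelium markers was called. Their log2 fold changes ran from −0.52 (Aqp2) to −0.04 and from 0.03 to 0.13 (Kdr). Every marker list overlapped between the Hmx3; Hmx2 groups. Of the intercalated markers Slc4a1 was called lower and Slc26a4 higher in both the Dmrt2 and the triple comparison, and Slc26a4 lower in the Hmx3; Hmx2 comparison. Foxi1, another of them, was called lower in the difference Dmrt2 minus Hmx3; Hmx2 (−0.46, edgeR adjusted p = 0.019), beside 0.154% of all genes called in either direction. The part of these cells in the values of Ptger3, Ppp1r1a, Cldn10 and Cldn19 was not tested.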

How the data were processed

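RNA of whole mouse kidneys at embryonic day 18.5 was kept in RNAlater, extracted with an RNeasy column kit and sequenced at 150 bp after poly(A) selection, per the labels. The authors deposited raw read counts for each gene in 4 tables, with its exon length in bases. Per the submitters' processing notes, reads were processed with fastp 0.20.1, STAR 2.7.0e and featureCounts 2.0.1 on mm39. Per the file headers, featureCounts 2.0.3 summed exons by gene name over a GENCODE annotation, without the options for counting pairs, strand or multi-mapping reads. Single reads, not fragments, were thus counted, and reads shared with overlapping or antisense genes cannot be told apart. No sample matched 2 of the columns, which were left out.

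Counts were tested with edgeR 4.0.16 in R 4.3.3 (limma 3.58.1), using TMM scaling, filterByExpr (minimum count 10, total 15), robust quasi-likelihood F tests and Benjamini-Hochberg adjustment over all genes tested, with a threshold of 0.05. Knockouts were set against the controls of the same line, with the table as a term for Hmx3; Hmx2. Differences between effects used 1 fit of 24 libraries. The SE was taken as the size of the log2 fold change over the root of its F value, and 95% intervals are unadjusted. CPM were scaled by TMM over all 24 libraries, and correlations used log2(CPM + 0.5). Ratios were tested by two-sided exact permutation within tables. The scripts were tested on simulated data. A floor of 3 reads was used. Floors and intervals from counts would cover counting error only, since no molecular identifiers were used and the mates of a pair are counted singly.

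The 7 genes and all lists were chosen with earlier results of these data known. Named besides the 7 were list genes that were called, at most 2 others per list and comparison with the largest change, and the genes most similar across libraries. Alternatives tried were DESeq2 1.42.0, other size factors, no filter, a minimum mean of 1 CPM, leaving out each library, a replicate block, a joint fit, a Y-linked covariate, each table alone, no table term and no chromosome 3 genes. For the pair correlations they were another pseudocount of 2, total-count CPM, centring by table and controls alone.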

Additional observations from a re-analysis of the deposited data

How the results depend on the processing

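None of the 7 genes was called in the 3 comparisons or in the differences between effects, and 637 values of single genes were computed under alternatives. Of these 600 kept their direction and their side of the threshold, 15 passed it and 22 changed sign. Of the 22, 17 did so on leaving out a library, and none of the 22 was called. No call could be lost, since none of the 7 genes was called in the main fits. Without a filter on low counts 3 genes were called in the Dmrt2 comparison (Cldn10, Ptger3 and Ppp1r1a, adjusted p = 0.0017, 0.04 and 0.047), 3 in the triple comparison (Cldn10, Cldn19 and Ppp1r1a, adjusted p = 0.0046, 0.001 and 2.3e-06) and 1 in the difference triple minus Hmx3; Hmx2 (Ppp1r1a, 0.044). DESeq2 and the joint edgeR fit each called 1 in the triple comparison, and DESeq2 1 in that difference. The cause was not tested. On leaving out each library in turn the number called was 0 to 1 in the Dmrt2 comparison, 0 to 2 in the triple comparison and 0 to 1 in the difference triple minus Hmx3; Hmx2. The number of correlated pairs, 2, was 1 with centring by table and 1 with controls alone.

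Values that changed sign with a Y-linked covariate were Cldn16 in the Dmrt2 comparison (0.01) and Ptger3 in the Hmx3; Hmx2 comparison (0.04). In single tables of the Hmx3; Hmx2 line they were Ppp1r1a in replicates 1 to 3 (0.01) and Cldn16 (0.06) and Ptger3 (0.13) in replicates 4 to 6. Leaving out each library gave log2 ranges across 0 for Cldn16 (−0.09 to 0.10 in the Dmrt2, −0.04 to 0.03 in the Hmx3; Hmx2 and −0.24 to 0.04 in the triple comparison) and Umod (−0.20 to 0.09, −0.03 to 0.11 and −0.04 to 0.24). It did so also for Ppp1r1a (−0.06 to 0.01) and Ptger3 (−0.08 to 0.07) in the Hmx3; Hmx2 comparison, Slc12a1 in the triple comparison (−0.09 to 0.18) and Cldn10 in the difference triple minus Dmrt2 (−0.18 to 0.04).

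Counts of all genes called moved more. For the Dmrt2 comparison the 88 called became 429 with DESeq2, 676 without a filter, 54 without chromosome 3 genes and 13 with the Y-linked covariate. For the triple comparison the 222 became 1085, 1510 without a filter and 573 in the joint fit. With the replicate number as a block the fits called 80, 5 and 51 genes in the Dmrt2, Hmx3; Hmx2 and triple comparisons, and 0 of the 7 genes in each (lowest adjusted p = 0.13, 0.86 and 0.12). The labels do not say that numbers pair libraries, and deviations of same-numbered libraries correlated at 0.09 to 0.14 in the Dmrt2 table, where each correlated best with its own number, at −0.05 to 0.31 in the Hmx3; Hmx2 line and at −0.38 to −0.19 in the triple table. Leaving out 1 library leaves an arm of 2 in the smaller tables.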
